A study of Mus musculus with 9 samples.

Results

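The autophagy and mitophagy machinery was described as 39 genes in cultured fibroblasts of mouse embryos (MEFs). The members were rows of a table of raw counts whose symbol begins with Atg and a digit, Gabarap or Map1lc3, is Wipi1 or Wipi2, or is one of 16 further genes named for initiation, cargo capture or mitophagy. Of the table's 29915 rows, 41 matched and 39 of them had at least 90 counts summed over the 9 libraries. The lowest member kept was Atg10 with 1319 summed counts, and the rows left out were Park2 with 3 counts and an Atg9 row with 0. Poly(A)-selected RNA was compared between 1 wild-type (WT) MEF line, with 4 libraries, and 1 MEF line of the genotype called mutator, with 5 libraries. The series was made to follow proteasome subunit genes. Both lines were untreated and were harvested 48 h after seeding. In mouse work, mutator commonly means a Polg mutation that removes proofreading by the polymerase of the mitochondrial genome; the labels give no allele, no embryo age and no strain, and gene counts cannot show the allele. The libraries are technical replicates of 1 line per genotype, so p-values measure the spread between wells, and an effect of genotype cannot be told apart from other differences of these cultures.

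Macroautophagy encloses cytoplasm or organelles in a double membrane, the autophagosome, and delivers them to the lysosome for degradation. The ULK kinase complex starts the process, a lipid kinase complex around PIK3C3 and Beclin 1 marks the membrane with phosphatidylinositol 3-phosphate, and ATG9 and ATG2 supply lipid. A ubiquitin-like conjugation cascade then couples small ATG8 proteins, the LC3 and GABARAP subfamilies, to the membrane, where they bind cargo receptors. Mitophagy is the same route applied to mitochondria: PINK1 and Parkin tag damaged mitochondria with phosphorylated ubiquitin, and BNIP3L and FUNDC1 are receptors in the outer mitochondrial membrane.

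Depth per library, as the sum of counts, was 26341230 to 36238653 in WT and 32045662 to 49511365 in mutator. Fibroblast genes were abundant in part: the intermediate filament gene Vim was at 1724 ± 20.3 CPM (SD, 4 WT libraries) and 3137 ± 77.1 CPM (SD, 5 mutator libraries), where CPM is the count scaled to library size, and the collagen gene Col1a1 was at 793 ± 49 CPM (SD, 4 WT libraries) and 2685 ± 262 CPM (SD, 5 mutator libraries). Thy1, Dcn, Lum and Fap, further fibroblast markers, had 0 and 20, 9 and 5, 1 and 0 and 17 and 36 summed counts in WT and mutator, so these defining markers were at or near 0. Summed over 12 fibroblast markers the level was 8812 to 9226 CPM in WT and 16240 to 17310 CPM in mutator. Summed over 7 epithelial markers it was 100.4 to 109.2 CPM in WT and 1.12 to 1.93 CPM in mutator, of which Krt18 made up 104 and 1.3 CPM on average. Summed macrophage markers were at 6.57 to 7.8 and 14.5 to 18.0 CPM, nearly all from Cd14 (means 4.42 and 12.2 CPM) and Cd68 (2.32 and 3.84 CPM), with Csf1r at 7 and 71 counts, Ptprc at 1 and 5 counts and Emr1 at 0; endothelial markers were at 0.685 to 1.2 and 0.293 to 0.531 CPM, with Emcn and Tie1 at 0. Muscle markers were at 2.25 to 3.19 and 0.34 to 0.513 CPM, mostly from Acta1 in WT and with Myod1, Myf5 and Ckm at 0, neural markers at 45.9 to 47.4 and 16.8 to 18.4 CPM, mostly from Mtap2 and with Snap25 at 0, and adipocyte markers at 7.07 to 8.02 and 1.82 to 2.81 CPM, nearly all from Fabp4 and with Plin1 and Lep at 0. The part of these differences in the results below was not tested, and in bulk RNA fewer cells of a type and less RNA per cell cannot be told apart.

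Most members differed between the lines, but by small amounts, and more were lower than higher in mutator. With a threshold of 0.05 on the edgeR adjusted p, 22 of 39 members fell, 8 rose and 9 did not pass. Members called in either direction were 76.9%, against 79.9% of all 13345 genes tested; 40.7% of all genes were higher and 39.2% were lower. The median log2 fold change (mutator over WT) was -0.13 over the members and 0.011 over all genes, and the median size of the log2 fold change was 0.24 over the members and 0.35 over all genes. Only 5 members, or 12.8%, passed with a fitted change of at least 1.5-fold, against 31.8% of all genes. They were Wipi1, which rose, and Atg9b, Gabarapl1, Pink1 and Atg16l2, which fell. Just inside that limit was Wipi1 at 1.51-fold and just outside it were Ulk2 at 1.49-fold and Gabarapl2 at 1.49-fold. For 29 members no WT library overlapped the mutator range, against 71.9% of all genes. The coefficient of variation between wells had a median of 3.3% in WT and 2.94% in mutator over the members, and was largest for Atg10 in both groups (9.98% and 10.7%).

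**Figure D1:**
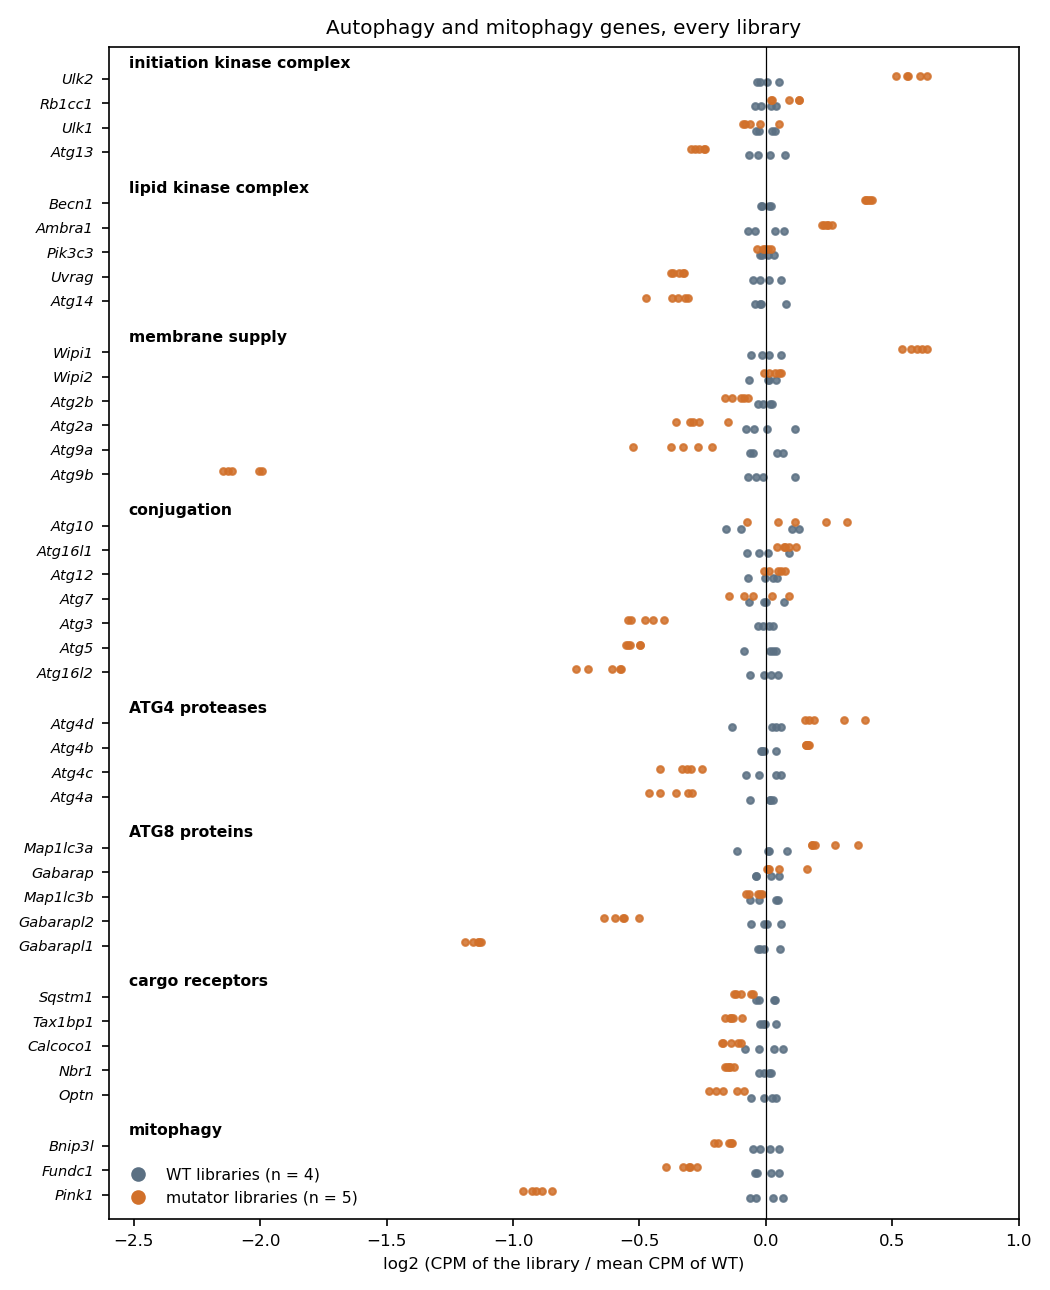
Log2 ratio of CPM in each library to the WT mean, on the x axis, for the 39 members ordered by role. Grey-blue points are the 4 WT libraries and orange points the 5 mutator libraries; Atg9b, Gabarapl1 and Pink1 lie far to the left in every mutator library, and Wipi1, Ulk2 and Becn1 lie to the right.

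Upstream sequences of 4 members that rose or fell are shown, 1 with and 3 without the letters CACGTG. TFEB, a regulator of autophagy and lysosome genes, binds this form of the E-box, and other E-box forms were not searched. Capitals mark CACGTG on either strand (it reads the same on both). The windows are the 250 bases before the RefSeq start site in GRCm38.p6, printed 5′ to 3′ on the gene's strand, at chr16:45158579-45158828 for Atg3 (plus strand), chr6:129532942-129533191 for Gabarapl1 (plus strand), chr4:138326297-138326546 for Pink1 (minus strand) and chr11:109611390-109611639 for Wipi1 (minus strand).
Atg3: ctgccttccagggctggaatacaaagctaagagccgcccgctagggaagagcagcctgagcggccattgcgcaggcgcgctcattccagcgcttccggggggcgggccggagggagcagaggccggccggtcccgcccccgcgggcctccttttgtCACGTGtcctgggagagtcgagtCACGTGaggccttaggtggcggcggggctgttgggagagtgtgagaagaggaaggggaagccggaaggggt
Gabarapl1: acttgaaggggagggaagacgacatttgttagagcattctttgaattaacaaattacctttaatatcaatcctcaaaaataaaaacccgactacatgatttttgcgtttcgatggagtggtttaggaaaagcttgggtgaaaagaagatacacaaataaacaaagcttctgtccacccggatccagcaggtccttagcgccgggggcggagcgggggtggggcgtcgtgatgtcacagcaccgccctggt
Pink1: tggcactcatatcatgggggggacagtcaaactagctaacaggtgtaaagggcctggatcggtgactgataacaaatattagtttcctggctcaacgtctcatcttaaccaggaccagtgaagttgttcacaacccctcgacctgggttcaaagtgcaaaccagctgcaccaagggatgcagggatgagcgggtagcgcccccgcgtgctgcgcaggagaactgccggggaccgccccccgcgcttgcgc
Wipi1: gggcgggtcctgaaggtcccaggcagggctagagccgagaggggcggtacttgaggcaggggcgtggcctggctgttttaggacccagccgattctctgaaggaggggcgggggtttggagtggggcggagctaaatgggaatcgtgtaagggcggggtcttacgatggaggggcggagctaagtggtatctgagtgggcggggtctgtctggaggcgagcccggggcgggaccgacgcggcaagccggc

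The Atg3 window held 2 CACGTG motifs, beginning 94 and 71 bases before the start site, and the Gabarapl1, Pink1 and Wipi1 windows held none. RefSeq windows, of 250 bases before and 50 after a start site, were matched by symbol for 32 of the 39 members, in 36 windows. The motif stood in 4 of these 36 windows, those of Atg3, Atg5, Atg7 and Atg14, and in 7.15% of all 32851 windows. Its longer form TCACGTG, which overlaps it, stood in 3 of the 36, those of Atg3, Atg7 and Atg14, and in 3.77% of all windows. The forkhead letters TGTTTAC (3.65% of all windows) and the ATF4 letters TGATGNAA (3.97%), searched on both strands, were found in no member window. Other forms of these sites were not searched, so their absence is not shown. The G and C share was 68.0% in the Atg3 window, 67.2% for Wipi1, 57.2% for Pink1 and 46.8% for Gabarapl1. Of the genes with a CACGTG window, Atg3, Atg5 and Atg14 fell and Atg7 did not pass, where 22 of all 39 members and 39.2% of all genes fell. A link between the motif and the change was not tested.

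In the initiation kinase complex, 2 of 4 genes rose (Ulk2 and Rb1cc1), 1 fell (Atg13), and Ulk1 did not pass the test. Beside this count and those of the groups below, 40.7% of all genes tested rose and 39.2% fell. Ulk1 and Ulk2 encode the kinases that start autophagosome formation. Ulk2 was at 64.6, 68, 64 and 65.8 CPM in the WT libraries and 102, 100.2, 96.7, 93.8 and 96.7 CPM in the mutator libraries. Every mutator library lay above every WT library, and the gene rose 1.49-fold (log2 fold change 0.58 ± 0.031 SE, edgeR adjusted p = 5.73e-12). Ulk1 was at 48.1, 46, 48.5 and 46.4 CPM in the WT libraries and 44.4, 44.7, 45.2, 49 and 46.5 CPM in the mutator libraries, and the groups overlapped. Its log2 fold change was -0.039 (95% interval -0.11 to 0.034, edgeR adjusted p = 0.309); with the trend on GC content and transcript length removed it was -0.32 and passed (adjusted p = 5.47e-10), and relative to the chromosome 5 median it was -0.080 (adjusted p = 0.0475). Within each library, Ulk1 took a smaller share of the summed Ulk1 and Ulk2 counts per kilobase of exon in mutator, from 39.9 ± 1.23% in WT (SD, n = 4) to 30.2 ± 1.52% in mutator (SD, n = 5) (2-sided exact permutation p = 0.00794, the smallest that 126 permutations can give; 0.00926 adjusted over 7 families). Rb1cc1 encodes FIP200, the scaffold of the complex. It was at 95.5, 94.3, 91.7 and 90.3 CPM in the WT libraries and 102, 99.1, 102, 94.6 and 94.2 CPM in the mutator libraries, and the groups overlapped. Rb1cc1 rose by 0.081 on the log2 scale (edgeR adjusted p = 0.0232), and by 0.21 after the GC and length correction. The call was lost without WT replicate 3 (0.070), WT replicate 4 (0.061), mutator replicate 1 (0.069) or mutator replicate 3 (0.070). Atg13, the regulatory subunit that binds FIP200, fell 1.2-fold between means of 38.3 ± 1.61 CPM (WT) and 31.8 ± 0.519 CPM (mutator) (log2 fold change -0.26 ± 0.034 SE, edgeR adjusted p = 1.28e-06). Atg13 lies on chromosome 2, whose genes had a median log2 fold change of 0.31, and relative to that median it was at -0.58.

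In the lipid kinase complex, 2 of 5 genes rose (Becn1 and Ambra1), 2 fell (Atg14 and Uvrag) and Pik3c3 did not pass. Beclin 1 is the scaffold that activates the kinase, ATG14 directs the complex to autophagosome formation and UVRAG to endosomal steps. Becn1 was at 109, 110.0, 107 and 107 CPM in the WT libraries and 143, 145, 142, 143 and 144 CPM in the mutator libraries. The groups were well apart, and Becn1 rose 1.32-fold (log2 fold change 0.41 ± 0.022 SE, edgeR adjusted p = 6.69e-12). In the GENCODE annotation of GRCm38, 43.9% of Becn1 exon bases overlap exons of Cntd1 on the other strand, which had 20 counts in WT and 143 in mutator. The strand setting of the counting is not given in the sources used here, so reads of the pair cannot be told apart. The catalytic subunit gene Pik3c3 was at 37.6, 38.1, 37.3 and 38.8 CPM in the WT libraries and 37, 38.1, 38.5, 37.6 and 37.9 CPM in the mutator libraries. The groups overlapped throughout, and the log2 fold change was -0.0049 (95% interval -0.067 to 0.058, edgeR adjusted p = 0.883). It was -0.12 relative to the median of chromosome 18 and 0.073 after the GC and length correction, each past the threshold, so its direction depended on the scale. Uvrag fell 1.27-fold between means of 59.3 ± 1.94 CPM (WT) and 46.6 ± 0.73 CPM (mutator) (log2 fold change -0.35 ± 0.03 SE, edgeR adjusted p = 5.72e-09). Gm45187 on the other strand overlaps 17.6% of Uvrag exon bases and was not matched to a row. Atg14 fell 1.28-fold between means of 15.8 ± 0.622 CPM (WT) and 12.3 ± 0.55 CPM (mutator), and by 0.12 on the log2 scale relative to the median of chromosome 14. Ambra1, a Beclin 1 partner, rose 1.18-fold (log2 fold change 0.24 ± 0.032 SE, edgeR adjusted p = 1.92e-06), but on chromosome 2 it was at -0.078 relative to the chromosome median and passed in the other direction (adjusted p = 0.0348), and without the GC and length trend its value was 0.089.

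Among the genes of membrane supply, 1 of 6 rose (Wipi1), 4 fell and Wipi2 did not pass; Atg9b fell the most of all 39 members. WIPI1 and WIPI2 read phosphatidylinositol 3-phosphate on the forming membrane, and WIPI2 recruits the conjugation enzymes. Wipi1 was at 31.4, 34.1, 33 and 32.4 CPM in the WT libraries and 50.9, 50.2, 48.6, 49.5 and 47.5 CPM in the mutator libraries. No library overlapped, and Wipi1 rose 1.51-fold (log2 fold change 0.60 ± 0.034 SE, edgeR adjusted p = 1.29e-11). Wipi2 was at 108 ± 3.42 CPM (SD, 4 WT libraries) and 110.3 ± 2.19 CPM (SD, 5 mutator libraries), a log2 fold change of 0.031 (95% interval -0.026 to 0.088) that did not pass; it passed under upper quartile scaling (0.076). The share of Wipi1 in the summed counts per kilobase of the pair went from 42 ± 0.647% in WT (SD, n = 4) to 51.7 ± 0.954% in mutator (SD, n = 5) (exact permutation p = 0.00794, 0.00926 adjusted over 7 families). ATG9A is the lipid scramblase of autophagy vesicles in most tissues, and ATG9B is its paralog. Atg9b was at 8.91, 7.83, 8.18 and 8.02 CPM in the WT libraries and 2.05, 1.91, 1.86, 1.89 and 2.07 CPM in the mutator libraries. It was low in both lines and fell 4.23-fold (log2 fold change -2.08 ± 0.076 SE, edgeR adjusted p = 1.99e-14). Exons of Nos3 on the other strand overlap 7.5% of its exon bases, and Nos3 had 13 counts in WT and 31 in mutator. A processed transcript on the same strand, Gm29253, covers 31.8% of Atg9a exon bases and was not matched to a row, so Atg9a counts are uncertain. After the GC and length correction the log2 fold change of Atg9a was -0.52. Atg9a fell 1.26-fold (log2 fold change -0.33 ± 0.059 SE, edgeR adjusted p = 4.96e-05), and its share of the pair went from 57.8 ± 1.99% in WT (SD, n = 4) to 82 ± 1.21% in mutator (SD, n = 5) (exact permutation p = 0.00794, 0.00926 adjusted). The lipid transfer genes Atg2a and Atg2b fell 1.2-fold and 1.08-fold; Atg2a was at -0.64 and Atg2b at -0.18 on the log2 scale after the GC and length correction. The share of Atg2a in the pair was 43.5 ± 1.31% in WT and 40.8 ± 1.81% in mutator, with overlapping libraries (exact permutation p = 0.0397, also 0.0397 adjusted). That p rose to between 0.0536 and 0.125 when any library other than mutator replicate 4 was left out, and was 0.0286 without mutator replicate 4.

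In the conjugation cascade, 3 of 7 genes fell, none rose and 4 did not pass, but 3 of those 4 (Atg16l1, Atg12 and Atg10) passed as higher once the GC and length trend was removed. ATG7 is the activating enzyme, ATG3 and ATG10 are conjugating enzymes, and the ATG12-ATG5-ATG16L1 complex acts as the ligase for ATG8 proteins. Atg5 was at 58.3, 57.8, 53.8 and 58.9 CPM in the WT libraries and 40.5, 39.4, 40.5, 39.2 and 39 CPM in the mutator libraries. The mutator libraries were all lower, a fall of 1.44-fold (log2 fold change -0.53 ± 0.032 SE, edgeR adjusted p = 3.88e-11). Relative to the median of chromosome 10 the log2 fold change was -0.32, without the GC and length trend -0.40, and with both removed -0.16. Atg3 was at 87.9, 86.4, 85.3 and 88.9 CPM in the WT libraries and 65.9, 63.9, 62.5, 59.8 and 60.1 CPM in the mutator libraries. It fell 1.4-fold with no overlap (log2 fold change -0.48 ± 0.032 SE, edgeR adjusted p = 1.23e-10), and by 0.30 on the log2 scale after the GC and length correction. Atg7 was at 15.3, 15.3, 16.1 and 14.7 CPM in the WT libraries and 15.6, 14.4, 13.9, 16.4 and 14.8 CPM in the mutator libraries. The groups overlapped, with a log2 fold change of -0.027 (95% interval -0.14 to 0.085); relative to the chromosome 6 median it was -0.17 and passed (adjusted p = 0.00815). Atg16l1, the ligase subunit gene, was at 28.7, 30.4, 28 and 27.1 CPM in the WT libraries and 29.97, 29.4, 30.4, 31 and 30.1 CPM in the mutator libraries. WT replicate 2 lay inside the mutator range, and the log2 fold change of 0.080 missed the threshold (edgeR adjusted p = 0.0581). It passed as higher under several alternatives, at 0.12 with upper quartile scaling, 0.10 with no filter, 0.11 with the 10 CPM filter, 0.10 relative to the chromosome median, 0.19 without the GC and length trend (adjusted p = 7.98e-05), and 0.10 and 0.091 without WT replicate 2 or mutator replicate 2. Its paralog Atg16l2 was at 16.5, 16.2, 16.8 and 15.6 CPM in the WT libraries and 9.67, 10.7, 9.97, 10.9 and 10.9 CPM in the mutator libraries. It fell 1.56-fold (log2 fold change -0.64 ± 0.051 SE, edgeR adjusted p = 1.86e-09), and the share of Atg16l1 in the pair went from 60.7 ± 1.2% in WT (SD, n = 4) to 71.8 ± 1.12% in mutator (SD, n = 5) (exact permutation p = 0.00794, 0.00926 adjusted). Atg12 (0.038) and Atg10 (0.13) did not pass. Both passed as higher once the GC and length trend was taken out, at 0.14 (adjusted p = 0.000552) and 0.31 (adjusted p = 0.00434), whereas relative to the chromosome 18 median Atg12 passed as lower (-0.081, adjusted p = 0.0346); Atg10 was the lowest-count member, and its 95% interval of -0.073 to 0.34 was the widest among the genes that did not pass.

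The ATG8 family changed in composition, as 2 of its 5 genes fell (Gabarapl1 and Gabarapl2), 1 rose (Map1lc3a), and Gabarap and Map1lc3b did not pass. These genes encode the small ubiquitin-like proteins that are fixed to the autophagosome membrane; Map1lc3b encodes LC3B, the common marker of autophagosomes. Gabarapl1 was at 117, 117, 118 and 124 CPM in the WT libraries and 54.5, 53.4, 52.1, 54.2 and 54.2 CPM in the mutator libraries. Every WT library was far above every mutator library, and Gabarapl1 fell 2.22-fold (log2 fold change -1.15 ± 0.028 SE, edgeR adjusted p = 5.25e-17). Exons of 1700101I11Rik on the other strand overlap 28.3% of Gabarapl1 exon bases, and it was not matched to a row of the table, so its part in these counts is not known. Gabarapl2 was at 51, 51.4, 49.2 and 53.4 CPM in the WT libraries and 33.8, 36.2, 34.7, 32.9 and 34.6 CPM in the mutator libraries. It fell 1.49-fold with no overlap (log2 fold change -0.57 ± 0.035 SE, edgeR adjusted p = 3.19e-11). Gabarap, the most abundant member per kilobase of exon in both lines, was at 207, 207, 215 and 219.7 CPM in the WT libraries and 238, 220.0, 214, 213 and 213 CPM in the mutator libraries. Its groups overlapped, and the log2 fold change was 0.051 (95% interval -0.017 to 0.12, edgeR adjusted p = 0.155). It passed as higher after the GC and length correction (0.12, adjusted p = 0.000449), under upper quartile scaling (0.10), with no filter (0.070) and with the 10 CPM filter (0.077), and was at -0.019 relative to its chromosome, where it did not pass. Map1lc3b was at 98.6, 96.2, 104 and 103 CPM in the WT libraries and 95.3, 98.4, 96, 99.3 and 98.8 CPM in the mutator libraries. The ranges overlapped here too, with a log2 fold change of -0.041 (95% interval -0.10 to 0.018, edgeR adjusted p = 0.186). It passed as lower after the GC and length correction (-0.079, adjusted p = 0.00348), relative to the chromosome median (-0.087, adjusted p = 0.00926) and without WT replicate 2 (-0.068). Map1lc3a was at 21.4, 19.7, 22.6 and 21.4 CPM in the WT libraries and 24.1, 24.4, 24.1, 27.4 and 25.7 CPM in the mutator libraries. It rose 1.18-fold (log2 fold change 0.24 ± 0.049 SE, edgeR adjusted p = 0.000192), but was at -0.075 relative to the chromosome 2 median and at -0.041 after the GC and length correction, neither past the threshold. Of windows of 75 bases along the longest GENCODE transcript, 13.3% for Gabarapl2 and 5.9% for Map1lc3b also occur in transcripts of other genes, so some of their reads may be missing or split.

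Within each library the summed counts per kilobase of the 5 ATG8 genes shifted towards Gabarap and away from Gabarapl1. Gabarap held 50.5 ± 0.257% in WT and 61.1 ± 1.36% in mutator (SD, n = 4 and 5), and Gabarapl1 held 26 ± 0.269% in WT and 13.7 ± 0.287% in mutator. Gabarapl2 held 9.68 ± 0.326% in WT and 7.61 ± 0.36% in mutator. The Map1lc3 genes together went from 13.8 ± 0.474% in WT (SD, n = 4) to 17.6 ± 0.979% in mutator (SD, n = 5) (exact permutation p = 0.00794, 0.00926 adjusted over 7 families). These shares do not depend on how libraries are scaled, and they depend on the exon length taken for each gene; the direction was the same with raw counts. The shares of the 7 families were not recomputed with the chromosome or the GC and length offsets. Under either offset the log2 fold change of Map1lc3a turned below 0, so the shift towards the Map1lc3 genes was not tested on those scales.

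**Figure D2:**
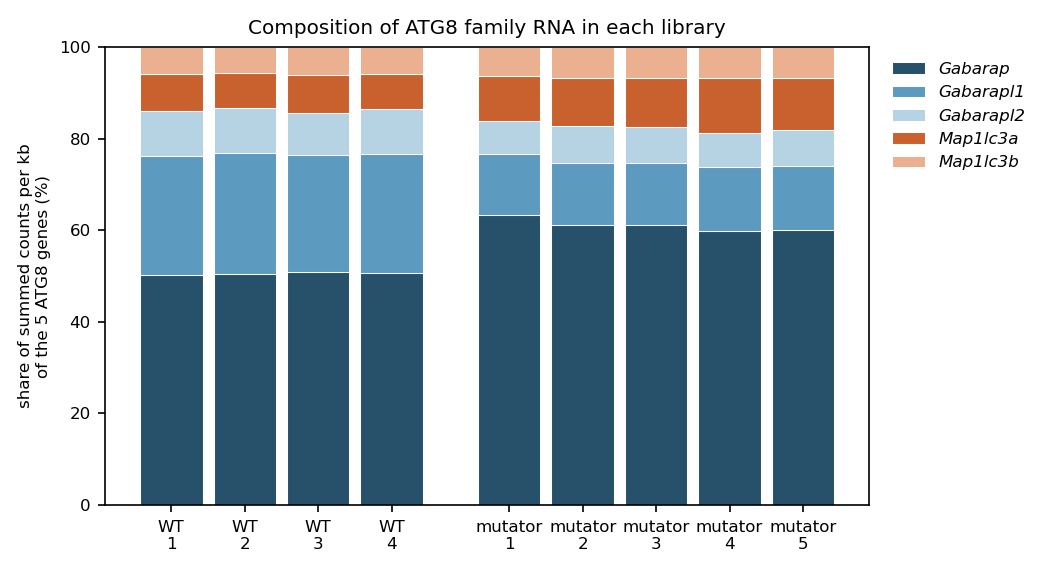
Share of the summed counts per kilobase of exon of the 5 ATG8 genes, in percent on the y axis, held by each gene in the 4 WT and 5 mutator libraries on the x axis. Gabarapl1 fills 25.6 to 26.3% of each WT bar and 13.3 to 14.0% of each mutator bar.

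The ATG4 proteases, which trim ATG8 proteins and release them from membranes, moved in both directions, with 2 of 4 genes higher and 2 lower. Atg4b, the gene of the most active of these proteases, rose from 54 ± 0.991 to 60.5 ± 0.193 CPM (log2 fold change 0.16 ± 0.027 SE, edgeR adjusted p = 2.23e-05). Atg4a fell 1.29-fold (log2 fold change -0.37 ± 0.042 SE, edgeR adjusted p = 3.14e-07); 52.0% of its 75-base windows also occur elsewhere, among others in the pseudogene Atg4a-ps, so its counts are uncertain, and without the GC and length trend its value was -0.21. Atg4c fell 1.25-fold, but it lies on chromosome 4, where the median gene was at -0.36, and relative to that it was at 0.032 and did not pass; with the GC and length trend taken out, Atg4c was at -0.18. Atg4d rose 1.19-fold, but on chromosome 9, with a median of 0.40, it was at -0.16 relative to the chromosome and passed in the other direction (adjusted p = 0.0166), while its value without the GC and length trend, 0.095, missed the threshold. Kri1 overlaps 19.3% of Atg4d exon bases on the other strand, with 4743 counts in WT and 11651 in mutator. The share of Atg4b in the summed counts per kilobase of the 4 genes went from 27.2 ± 0.408% in WT (SD, n = 4) to 33 ± 0.44% in mutator (SD, n = 5) (exact permutation p = 0.00794, 0.00926 adjusted). Atg4a made up 43.4% of that sum in WT and 36.4% in mutator, so its uncertain counts make this share uncertain too.

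**Figure D3:**
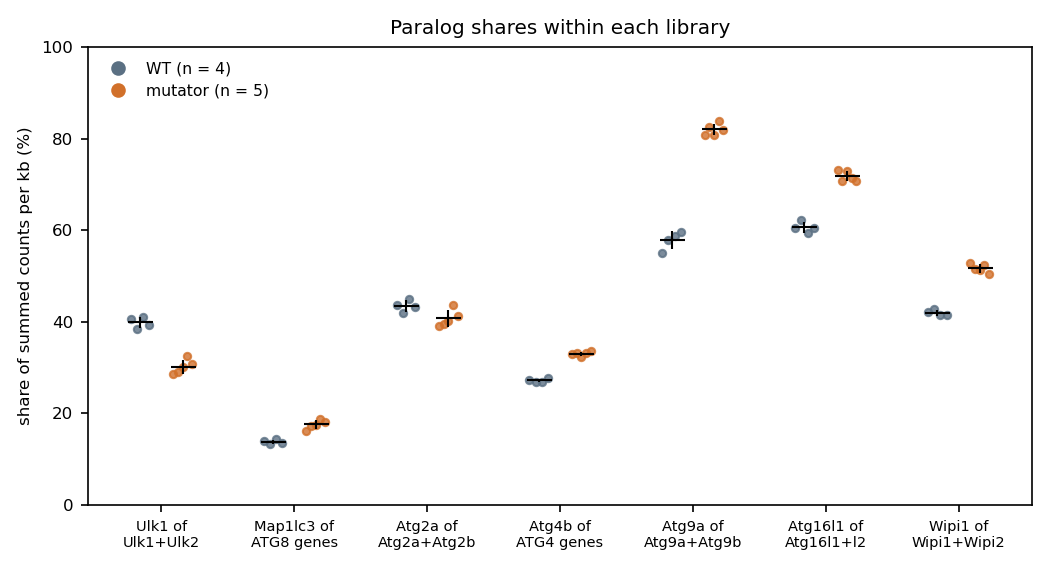
Share of one paralog, or of both Map1lc3 genes, in the summed counts per kilobase of exon of its family, in percent on the y axis, for 7 families on the x axis. Points are libraries, and black bars give the mean and SD of 4 WT and 5 mutator libraries; the groups overlap only for Atg2a, and Atg9a shows the widest gap (57.8 against 82.0%).

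All 5 cargo receptor genes fell by small amounts, with log2 fold changes from -0.16 to -0.090. Of all genes tested, 39.2% fell, and the median size of the log2 fold change was 0.35, against 0.14 for these 5 genes. These receptors bind ubiquitinated or other cargo and ATG8 proteins at the same time. Sqstm1 encodes p62, the receptor of protein aggregates, and was at 321, 318, 334 and 335 CPM in the WT libraries and 300.0, 302, 305, 314 and 316 CPM in the mutator libraries. The groups did not overlap, although mutator replicate 5 came within a few CPM of WT replicate 2. Sqstm1 fell 1.06-fold (log2 fold change -0.090 ± 0.024 SE, edgeR adjusted p = 0.00258), and under upper quartile scaling it did not pass (-0.045, adjusted p = 0.102). It was at -0.16 relative to its chromosome and at -0.17 after the GC and length correction. Mrnip overlaps 17.3% of Sqstm1 exon bases on the other strand, with 723 counts in WT and 1553 in mutator. Optn, whose product optineurin is a main receptor of the PINK1 and Parkin route, was at 47.5, 48.6, 45.8 and 49 CPM in the WT libraries and 45, 40.9, 41.6, 42.4 and 44.1 CPM in the mutator libraries. All mutator libraries were lower, with a log2 fold change of -0.16 ± 0.035 (SE, edgeR adjusted p = 0.000468), and of -0.48 relative to the chromosome 2 median. Nbr1, a relative of p62, fell 1.11-fold, Calcoco1, an endoplasmic reticulum and Golgi receptor, 1.1-fold, and Tax1bp1, a relative of the latter, 1.1-fold. Once the trend on GC and length was taken out, Tax1bp1 missed the threshold and had the opposite sign (0.025), while Calcoco1 was at -0.34; relative to its chromosome Tax1bp1 was at -0.27.

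All 3 mitophagy genes with enough counts fell, Pink1 by the most, where 39.2% of all genes tested fell. PINK1 is the kinase that accumulates on damaged mitochondria. Pink1 was at 23.8, 25, 25.7 and 23.5 CPM in the WT libraries and 12.9, 12.6, 13, 13.6 and 13.2 CPM in the mutator libraries. The lowest WT library was well above the highest mutator library, and Pink1 fell 1.87-fold (log2 fold change -0.90 ± 0.043 SE, edgeR adjusted p = 1.01e-12). It lies on chromosome 4, and relative to that chromosome's median its log2 fold change was -0.55 (adjusted p = 3.44e-09). Park2, the gene of the ubiquitin ligase Parkin that PINK1 activates, had 0 counts in each WT library and 0, 0, 1, 2 and 0 counts in the mutator libraries. Both groups were at or under a floor of 3 counts over the group, so no fold is given. Fundc1, an X-linked receptor gene, was at 41.7, 44.3, 43.3 and 41.5 CPM in the WT libraries and 35.4, 34, 34.6, 34.7 and 32.5 CPM in the mutator libraries. It fell 1.25-fold with no overlap (log2 fold change -0.32 ± 0.034 SE, edgeR adjusted p = 1.1e-07), and was at -0.12 after the GC and length correction (adjusted p = 0.00243). Bnip3l, which encodes the receptor NIX, was at 160.3, 165, 157 and 169 CPM in the WT libraries and 148, 147, 148, 141 and 142 CPM in the mutator libraries. It fell 1.12-fold (log2 fold change -0.16 ± 0.026 SE, edgeR adjusted p = 1.44e-05), but it was at 0.073 relative to the chromosome 14 median, past the threshold in the other direction, and at -0.0049 after the GC and length correction. Of its 75-base windows, 18.7% also occur in the pseudogene Bnip3l-ps.

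**Figure D4:**
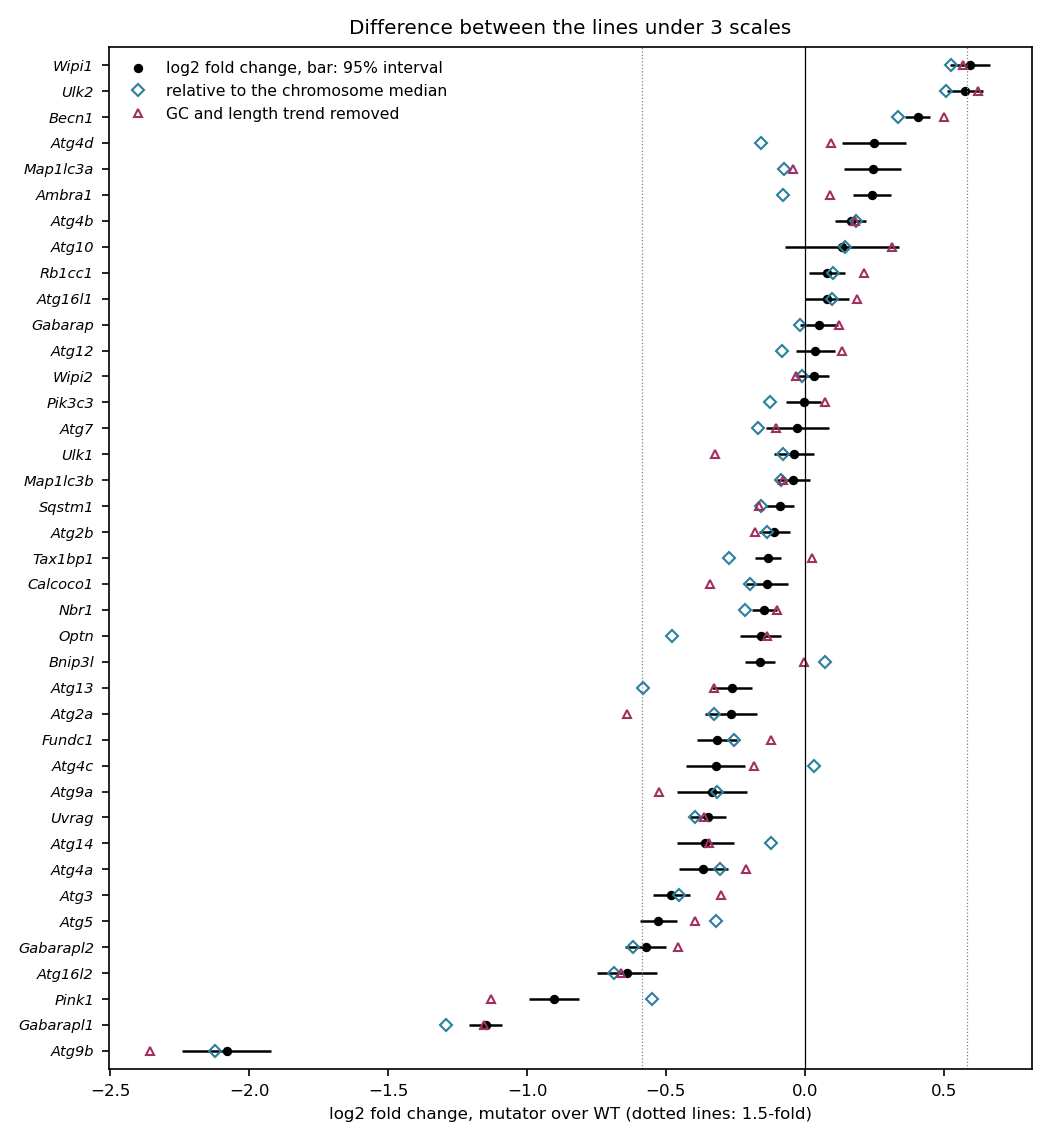
Log2 fold change of mutator over WT on the x axis for the 39 members, ordered by size. Black points carry 95% intervals, diamonds are relative to the median of the gene's chromosome and triangles have the GC and length trend removed; of the members past the threshold, Ambra1, Map1lc3a and Atg4d turn from above to below 0 relative to the chromosome and Atg4c and Bnip3l from below to above it, while without the GC and length trend Tax1bp1 turns above 0 and Map1lc3a below it. Of the members that did not pass, Atg12, Gabarap and Wipi2 change sides of 0 relative to the chromosome, and Pik3c3 and Wipi2 without the trend.

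The order of levels per kilobase of exon differed little between the lines at the top. In WT it was led by Gabarap (115 ± 3.52 CPM per kilobase), Sqstm1 (97.5 ± 2.64), Gabarapl1 (59.2 ± 1.64) and Bnip3l (42.2 ± 1.33), with no overlap between neighbours in that order. In mutator Gabarap (119 ± 5.74 CPM per kilobase) and Sqstm1 (91.6 ± 2.15) were again highest, and Bnip3l (37.7 ± 0.824) stood above Gabarapl1 (26.7 ± 0.476). The lowest in WT were Atg7, Atg10, Atg9b and Atg16l2, from 2.2 down to 1.92 CPM per kilobase, and the libraries of each neighbouring pair among them overlapped. These levels use the merged exons of the GENCODE annotation, which may be longer than the transcripts these cells make.

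Other genes of the pathway were taken from 5 lists, in which 102 of 104 entries other than members were found, 9 under an older symbol. From each list the 3 genes past the threshold with the largest log2 fold change, up or down, and a mean of at least 1 CPM are named. Genes past the threshold made up 81.8% of the initiation and nucleation partners, 95% of the fusion genes, 73.1% of the other mitophagy genes, 86.7% of the other receptors and 94.1% of the transcription factors, against 79.9% of all genes. Relative to chromosome medians, 11 of the 83 list genes past the threshold changed sign. Among initiation and nucleation partners, 8 of 22 genes rose and 10 fell (median log2 fold change -0.049). The 3 with the largest changes were Trp53inp1, a p53 target whose product binds ATG8 proteins, Wdr45, which encodes WIPI4, and Tecpr1, whose product tethers autophagosomes to lysosomes. Trp53inp1 was at 55.3 ± 1.15 CPM (SD, 4 WT libraries) and 21.5 ± 1.28 CPM (SD, 5 mutator libraries), a fall of 2.57-fold. Wdr45 was at 42.5 ± 0.356 CPM (SD, 4 WT libraries) and 17.1 ± 0.554 CPM (SD, 5 mutator libraries), a fall of 2.47-fold. Tecpr1 rose 1.65-fold, a log2 fold change of 0.72 that was 0.42 without the GC and length trend. Among genes of autophagosome and lysosome fusion, 10 of 20 rose and 9 fell (median 0.045). Tecpr1 is on that list too, and the tethering subunits Vps16 and Vps18, both on chromosome 2, rose 1.5-fold and 1.43-fold; relative to the chromosome median their log2 fold changes were 0.27 and 0.20, and once both the chromosome offset and the sequence trend were taken out, Vps18 was at -0.062 and did not pass.

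Among other mitophagy genes, 7 of 26 tested rose and 12 fell (median -0.068). Bnip3, the hypoxia-induced relative of Bnip3l, was at 59 ± 2.71 CPM (SD, 4 WT libraries) and 106 ± 4.31 CPM (SD, 5 mutator libraries) and rose 1.8-fold (log2 fold change 0.85 ± 0.036 SE, edgeR adjusted p = 2.08e-13). Mfn1, a mitochondrial fusion GTPase and a substrate of Parkin, had mean levels of 125 ± 4.04 CPM (WT) and 63.1 ± 1.44 CPM (mutator) and so fell 1.99-fold. Its chromosome is 3, where the median gene was at -0.73, and relative to that its log2 fold change was -0.26; no member of the machinery lies on that chromosome. Nlrx1, a mitochondrial NOD-like protein, rose 1.71-fold, and its log2 fold change of 0.77 was 0.37 relative to its chromosome and 0.14, not past the threshold, under that same double correction. Among other selective receptors, 7 of 15 rose and 6 fell (median -0.0050). The glycogen-binding receptor gene Stbd1 rose 6.22-fold, from 2.18 ± 0.28 to 13.6 ± 0.456 CPM. Ncoa4, the receptor of ferritin, fell 1.6-fold, a log2 fold change of -0.67 that was -0.44 relative to its chromosome. Sec62, a receptor on the endoplasmic reticulum, fell 1.55-fold, but lies on chromosome 3 and was at 0.092 relative to its median, past the threshold in the other direction.

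Among 17 transcription factors and cofactors of autophagy and lysosome genes, 9 rose and 7 fell (median 0.27). Mitf, of the TFEB family, was at 5.21 ± 0.406 CPM (SD, 4 WT libraries) and 12.6 ± 0.868 CPM (SD, 5 mutator libraries) and rose 2.42-fold. Ddit3, the stress factor CHOP, rose 1.54-fold, and Crtc2, a cofactor of CREB, fell 1.89-fold; Crtc2 lies on chromosome 3 and was at -0.19 relative to its median. The TFEB gene itself, under the older symbol Tcfeb and named after its values were seen, was at 11.9 ± 1.15 CPM (SD, 4 WT libraries) and 10.01 ± 1.14 CPM (SD, 5 mutator libraries). Its libraries overlapped between the groups, and its log2 fold change of -0.25 ± 0.082 (SE, edgeR adjusted p = 0.00881) became -0.0012 relative to the median of chromosome 17. Without the GC and length trend it was -0.63, so whether the gene fell, and by how much, depended on the scale. Relative to chromosome medians, 3 rather than 7 genes of this list were lower.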

How the data were processed

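The authors deposited raw counts per gene for each library. The submitters' processing notes name STAR 2.4.2a, HTSeq and mm10. No source used here gives the HTSeq version, the annotation, the strand setting or how reads with several positions were counted. Per the labels' protocols, libraries were strand-specific, from 1 µg of RNA, with 150 bp paired-end reads; 5 wells per line were plated. Columns were matched to samples by description, and 5 further columns were not used. In all 16 replicate pairs, counts differed by more than sampling noise (chi-square per degree of freedom 2.49 to 12.4 over genes with at least 20 counts), so each library was its own sample.

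Libraries were scaled by TMM over genes kept by filterByExpr, and edgeR 4.0.16 (R 4.3.3) gave the tests (quasi-likelihood F test, group as the only term, Benjamini-Hochberg adjustment over 13345 genes, threshold 0.05). Each SE was obtained from the fold change and the F statistic. The test was checked on simulated counts in which 200 genes changed. Between these lines 79.9% of all genes were called, a setting that check did not cover. CPM uses TMM-scaled library sizes. Shares used exact permutation of libraries. Alternatives were DESeq2 1.42.0, other scalings and filters, a replicate block, leaving out each library, offsets for the median of the gene's chromosome, and a loess trend (span 0.3) on GC content and length of the longest GENCODE transcript. Positions come from RefSeq of GRCm38.p6, the assembly also called mm10; all 39 members matched.

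Members and gene lists were chosen with earlier results of these data known. Values in every library are given for 18 genes fixed by name (for Park2 as counts) and for the 10 members with the largest change past the threshold, and 3 genes are named per list (the largest changes among genes that passed, if their mean reached 1 CPM). With counts of 0, floors cover counting error only.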

Additional observations from a re-analysis of the deposited data

Results flagged for a closer look

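In 2 of 92 sets of values, 1 library stood apart from the others of its group; chance gives about 1 in 20. Atg14 was at 16.7 CPM in WT replicate 3 and at 15.4 to 15.6 CPM in the other WT libraries. Atg4a was at 26.5 CPM in WT replicate 1 and at 28.0 to 28.2 CPM in the other WT libraries. Both genes fell in mutator with each WT library left out in turn.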

How the results depend on the processing

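Of the 30 members past the threshold, 22 (18 lower and 4 higher) kept their direction and their call under every alternative run in which they were tested; the 4 were Wipi1, Ulk2, Becn1 and Atg4b. DESeq2 gave 8 members higher and 22 lower, as did RLE scaling. Upper quartile scaling gave 12 and 21, no filter 10 and 22, and the filter of at least 10 CPM in 4 libraries 10 and 21 of 37 tested. Leaving out 1 library gave 7 to 9 higher and 22 to 23 lower. Relative to chromosome medians 7 were higher and 27 lower, without the GC and length trend 11 and 22, and with both removed 10 and 28 (both removed was chosen after seeing the data). Of all genes tested, 39.3% were higher and 40.4% lower relative to chromosome medians, and 42.6% and 40.7% without the trend. With both removed 40.4% of all genes were higher and 40.1% lower, and under upper quartile scaling 44.3% and 35.7%. Members changed at least 1.5-fold numbered 4 relative to chromosome medians and 6 without the GC and length trend, against 5. Wipi1 was under that limit in both (0.53 and 0.57 on the log2 scale), and Pink1 was under it relative to its chromosome (-0.55). Gabarapl2 passed it relative to its chromosome (-0.62), and Ulk2 (0.62) and Atg2a (-0.64) passed it without the trend. Among members and the genes named from the lists, directions turned, with a call in at least 1 of the compared settings, relative to chromosome medians for Atg4c (0.032), Atg4d (-0.16), Map1lc3a (-0.075), Ambra1 (-0.078), Bnip3l (0.073), Atg12 (-0.081) and Sec62 (0.092), and without the GC and length trend for Map1lc3a (-0.041), Tax1bp1 (0.025) and Pik3c3 (0.073). With both removed such values were Atg4c 0.18, Atg4d -0.31, Map1lc3a -0.36, Ambra1 -0.23, Bnip3l 0.19, Wipi2 -0.050, Sec62 0.18 and Vps18 -0.062. The cause of these turns was not tested beyond the offsets themselves. With these offsets, members with no call in either setting also changed sign. They were Gabarap (-0.019) and Wipi2 (-0.0097) relative to chromosome medians, Wipi2 without the trend (-0.031) and Atg12 with both removed (-0.031). Such changes in the other runs are not all listed. Atg7, for example, was at 0.017 with upper quartile scaling and at 0.002 without mutator replicate 3. Lower transcription factors numbered 3 relative to chromosome medians, against 7. The difference in the Atg2a share was -3.41 to -2.15 percentage points with 1 library left out, where 8 of 9 omissions ended the call.

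Replicate numbers did not pair the samples: deviations of same-numbered libraries correlated at -0.08 to 0.027, and no WT library correlated best with its own number. With the replicate block, 8 members were higher and 22 lower, as without it over the same 8 libraries. With the block and the GC and length trend removed (chosen after seeing the data), Map1lc3a was at -0.047 and Tax1bp1 at 0.013. Atg10, at 1319 counts over 9 libraries, and Park2 limit what depth can show.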

Other observations

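The 3 members with the highest log2 fold changes, Wipi1 (0.60), Ulk2 (0.58) and Becn1 (0.41), all lie on chromosome 11, a pattern noticed after the values were seen. The other 3 members there were Gabarap (0.051), Sqstm1 (-0.090) and Nbr1 (-0.15), and the median of all 1049 genes tested on that chromosome was 0.063.

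Together the members took 0.265 to 0.269% of the counts in each WT library and 0.254 to 0.256% in each mutator library, and these ranges did not overlap.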
